A study of Mus musculus with 10 samples.

Results

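The matrix metalloproteinases Mmp2, Mmp3, Mmp9, Mmp13, Mmp14 and Mmp19 and the tissue inhibitors of metalloproteinases Timp1, Timp2, Timp3 and Timp4 were described in inguinal subcutaneous white fat of irradiated mice. These 6 proteases and 4 inhibitors were taken by symbol, and all 10 were found among the 24421 symbols of the count tables. The fat came from the left hindlimb of WT C57BL/6J mice, 70 days after that limb received 33.3 Gy of electrons from a linear accelerator. FLASH mice (4 libraries) received the dose at ultra-high dose rate, CONV mice (3 libraries) received it at conventional dose rate, and sham mice (3 libraries) were not irradiated. All libraries were of total RNA and carry the same batch number in the labels. No age is given in the labels, which also leave unsaid if the libraries of a group came from separate mice, so p-values measure the spread between these samples, which may be technical.

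Metalloproteinases are zinc enzymes that are made as inactive precursors and cut collagens, proteoglycans and other proteins around cells once the precursor is opened. Each TIMP binds the active site of these enzymes, so the local balance of proteases and inhibitors sets how fast matrix is broken down. In fat the family is known for the matrix remodelling that goes with growth of the tissue, with inflammation and with fibrosis.

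Promoter sequences of 3 of the genes are shown because the 2 secreted proteases Mmp3 and Mmp13 lie in the same metalloproteinase gene cluster on chromosome 9 and are textbook targets of the AP-1 transcription factor, while Timp1 is the inhibitor whose values differed most between the irradiated groups. Each is the 250 bases before the start of the gene, 5′ to 3′, from RefSeq on GRCm38.p6. Capitals mark the AP-1 letters TGAGTCA or their reverse complement TGACTCA. Mmp3 is chr9:7445572-7445821 on the plus strand, Mmp13 is chr9:7272264-7272513 on the plus strand and Timp1 is chrX:20869916-20870165 on the plus strand.
Mmp3: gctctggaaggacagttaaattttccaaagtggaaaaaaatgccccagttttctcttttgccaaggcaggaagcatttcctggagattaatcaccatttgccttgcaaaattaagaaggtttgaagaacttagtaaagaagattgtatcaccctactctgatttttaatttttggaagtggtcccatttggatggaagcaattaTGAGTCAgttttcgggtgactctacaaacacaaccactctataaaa
Mmp13: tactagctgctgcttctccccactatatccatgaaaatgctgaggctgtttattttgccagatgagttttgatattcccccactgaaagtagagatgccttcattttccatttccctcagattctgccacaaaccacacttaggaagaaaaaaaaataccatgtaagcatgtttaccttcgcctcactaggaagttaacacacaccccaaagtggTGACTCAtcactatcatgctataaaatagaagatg
Timp1: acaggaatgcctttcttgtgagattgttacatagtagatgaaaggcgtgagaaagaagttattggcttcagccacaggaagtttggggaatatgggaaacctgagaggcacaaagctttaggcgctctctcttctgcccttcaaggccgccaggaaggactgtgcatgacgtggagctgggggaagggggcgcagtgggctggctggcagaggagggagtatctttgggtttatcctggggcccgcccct
In Mmp3 the letters begin at position -46 from the start and in Mmp13 at position -35. No match was found in the Timp1 window. The promoter table held 7 of the 10 genes (Mmp3, Mmp13, Mmp14 and the 4 inhibitors), and 2 of these 7 windows held the letters, beside 4.46% of all 32851 windows of that length. A match describes the letters and shows no binding.

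Each library held 22.4 M to 36.0 M counts in genes (M, 1e6), and levels are CPM, counts per 1e6 after TMM scaling. A floor of 3 counts equals 0.0833 to 0.134 CPM and covers counting error only. FLASH replicate 3 and CONV replicate 2 stood apart: 10 B cell and lymph node markers summed to 1691 and 2156 CPM in them, against 3.15 to 17.1 CPM in the other 8 libraries, and 9 white adipocyte markers summed to 5319.8 and 3638 CPM, against 21811 to 38428 CPM. Fibroblast and progenitor markers summed to 969 and 869 CPM in this lymphocyte-rich pair. They were also low in CONV replicate 3 at 1185 CPM, against 2212 to 3015 CPM in the others. Each comparison is therefore also given for the 8 libraries without the pair, where CONV keeps 2 libraries. Muscle markers summed to 1496 CPM in CONV replicate 1, 527 CPM in sham replicate 3 and 147 CPM in FLASH replicate 2, against 1.40 to 32.1 CPM in the other libraries. Keratinocyte markers summed to 127 CPM in FLASH replicate 4, against 8.30 to 33.4 CPM elsewhere, and macrophage markers were highest in CONV replicate 1 at 2288 CPM, against 704 to 1566 CPM elsewhere. The part of these cell mixtures in the values below was not tested, and in bulk tissue fewer cells of a type and less RNA per cell cannot be told apart.

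Mmp3, Mmp19 and Timp1 had higher levels in CONV replicates 1 and 3 than in any FLASH or sham library, and Mmp13 had lower ones. FLASH and sham libraries overlapped for every gene but Timp1, and Timp4 joined it once the lymphocyte-rich pair was left out. At an edgeR adjusted p under 0.05, 0 of the 10 genes passed in any comparison, beside 0% of all genes with 10 libraries and at most 0.0393% with 8.

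Set per kilobase of exon, so that genes can be compared with each other, inhibitor transcripts were the most abundant of the family in sham fat. Timp2 averaged 120.5 ± 24.2 CPM per kb and Timp3 81.0 ± 22.5 CPM per kb (SD, n = 3), and their ranges overlapped. Mmp2 followed with 50.1 ± 5.52 CPM per kb, apart from its neighbours in the order. Mmp19, Timp4, Mmp3 and Mmp14 lay close together with means of 19.4, 17.2, 14.0 and 13.7 CPM per kb, each overlapping the next. Mmp9 came after them with 7.83 ± 0.317 CPM per kb. Timp1 at 0.749 ± 0.0835 CPM per kb and Mmp13 at 0.200 ± 0.0284 CPM per kb closed the order, apart from each other and from the rest. With the length of the longest transcript in place of merged exons, Timp3 moved to rank 1 with 139.7 CPM per kb and Mmp14 to rank 4 with 25.2 CPM per kb.

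**Figure D1:**
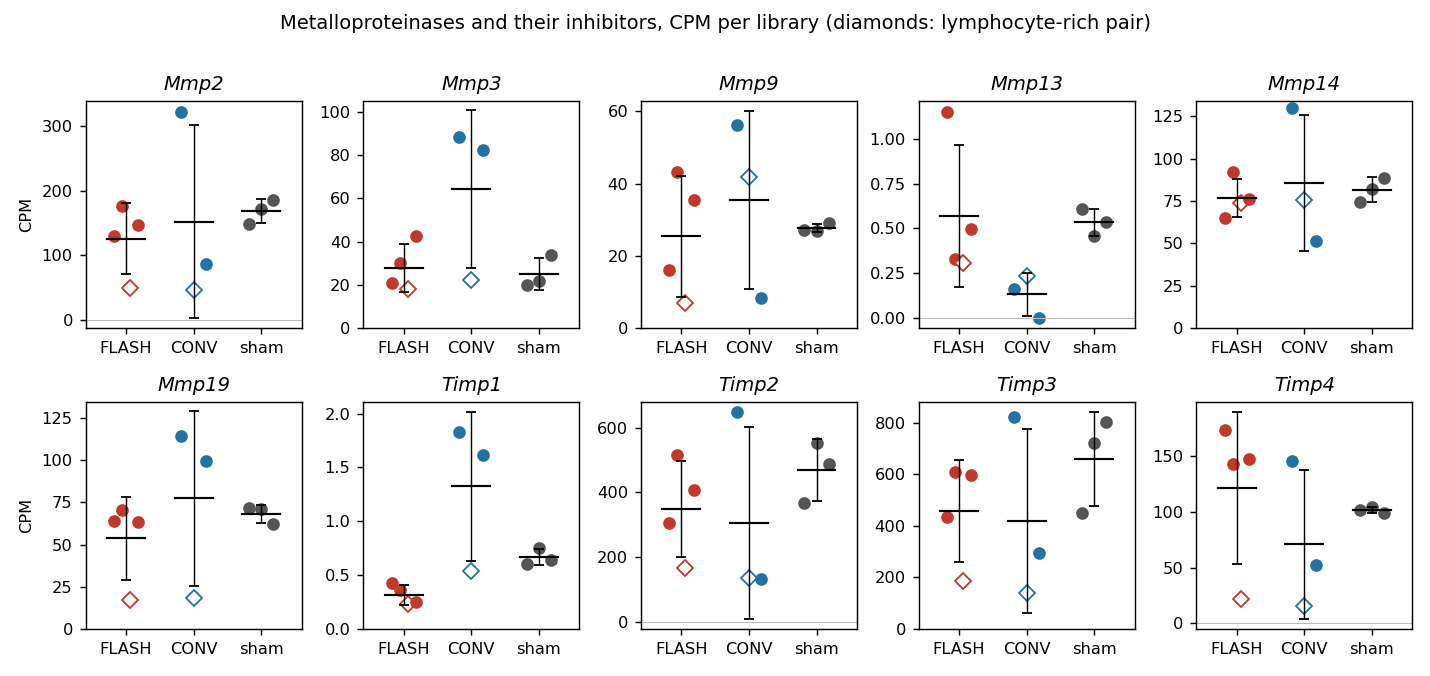
CPM of each gene per library, with the mean (line) and SD (bars) of the FLASH (n = 4), CONV (n = 3) and sham (n = 3) libraries; open diamonds are the lymphocyte-rich FLASH replicate 3 and CONV replicate 2. Timp1 lies at 0.232 to 0.424 CPM in FLASH (6 to 14 counts), below every CONV and every sham library (16 counts or more). Mmp3 reaches 88.2 and 82.1 CPM in CONV replicates 1 and 3.

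Mmp3, stromelysin 1, cuts proteoglycans and fibronectin and can open the precursors of other metalloproteinases (9:7445822-7455975 on GRCm38, plus strand). Its level was 21.1, 30.2, 18.1 and 42.7 CPM in FLASH replicates 1 to 4, 88.2, 22.4 and 82.1 CPM in CONV replicates 1 to 3, and 19.99, 21.9 and 33.7 CPM in sham replicates 1 to 3. CONV replicates 1 and 3 stood above all other libraries, while the lymphocyte-rich CONV replicate 2 lay among the sham values. With all 10 libraries the log2 fold change of CONV against sham was 1.35 ± 0.52 (SE; edgeR adjusted p = 0.607). Over the 8 libraries it was 1.74 ± 0.31 with an interval of 1.01 to 2.46, an average 3.34-fold difference, and it missed the threshold of 0.05 in edgeR (adjusted p = 0.0924). FLASH against CONV gave -1.43 ± 0.31 over the 8 libraries (edgeR adjusted p = 0.152), and FLASH against sham 0.31 ± 0.28 (edgeR adjusted p = 1). DESeq2 over the same 8 libraries put Mmp3 past the threshold in CONV against sham (adjusted p = 4.24e-05) and in FLASH against CONV (adjusted p = 0.00161). The lubricin gene Prg4, a marker of synovial and tendon surfaces, passed edgeR over the 8 libraries (CONV against sham 2.82 ± 0.26, adjusted p = 0.0228; FLASH against CONV -3.65 ± 0.27, adjusted p = 0.0126). Prg4 had 1.15, 1.17, 0.888 and 1.58 CPM in FLASH, 19.9, 1.41 and 12.9 CPM in CONV and 2.10, 2.64 and 2.15 CPM in sham libraries, high in the same CONV libraries as Mmp3. The 8 markers of synovium, cartilage and bone, Prg4 included, together summed to 169 to 399 CPM in FLASH. Sums were 156 to 455 CPM in CONV and 286 to 409 CPM in sham. Averaged gene by gene, their mean log2 CPM (0.1 CPM added) minus the sham mean was 0.39, -0.42 and 0.17 in CONV replicates 1 to 3. It was -0.52 to -0.19 in FLASH and -0.09 to 0.16 in sham libraries. The part of these markers in the Mmp3 values was not tested.

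Mmp13, the main interstitial collagenase of rodents, was near the floor of detection (9:7272514-7283331, plus strand). It had 38, 9, 8 and 16 counts in FLASH libraries, 5, 7 and 0 counts in CONV libraries and 20, 14 and 16 counts in sham libraries. On the CPM scale FLASH replicate 1 was the highest with 1.15 CPM, the other FLASH libraries had 0.309 to 0.494 CPM, CONV libraries 0 to 0.235 CPM and sham libraries 0.456 to 0.607 CPM. CONV thus lay below both other groups without overlap. CONV against sham was -1.97 ± 0.90 with all 10 libraries (edgeR adjusted p = 0.607) and -2.63 ± 0.98 over 8 (edgeR adjusted p = 0.307). FLASH against CONV was 2.07 ± 0.87 with all libraries (edgeR adjusted p = 0.999) and 2.93 ± 0.97 over 8 (edgeR adjusted p = 0.252). CONV replicates 1 and 3 held 5 counts together, so the size of these differences rests on very few reads.

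The gelatinases Mmp2 (8:92827291-92853420, plus strand), which fibroblasts secrete, and Mmp9 (2:164940780-164955850, plus strand), known from neutrophils and macrophages, cut denatured collagen and basement membrane. Mmp2 had 130.4, 177, 49.7 and 147 CPM in FLASH, 322, 46.4 and 87.4 CPM in CONV, and 149, 172 and 185 CPM in sham libraries. Mmp9 had 16.2, 43.2, 6.99 and 35.4 CPM in FLASH, 56.4, 41.9 and 8.42 CPM in CONV, and 27.1, 27.0 and 29.0 CPM in sham libraries. For both genes the 3 sham libraries were close together. For Mmp2, CONV replicate 1 lay above them, FLASH replicate 2 among them and the other irradiated libraries below, while for Mmp9 both irradiated groups had libraries below and above sham. Mmp2 differed by -0.16 ± 0.40 in FLASH against sham and by 0.26 ± 0.45 in CONV against sham over 8 libraries (edgeR adjusted p = 1 and 0.835), and the second value was -0.15 ± 0.67 with all 10. Mmp9 differed by 0.18 ± 0.61 and 0.21 ± 0.68 in the same comparisons (edgeR adjusted p = 1 and 0.920), and its interval for CONV against sham, -1.35 to 1.78, spans large changes either way. Mmp9 was as high as 41.9 CPM in CONV replicate 2, where 8 neutrophil markers summed to 246 CPM, against 1.01 to 5.51 CPM in all other libraries. Its part in that value was not tested.

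Mmp14, the membrane-bound collagenase that opens the Mmp2 precursor, had the narrowest interval of the 10 genes with all 10 libraries (14:54431612-54445364, plus strand). It measured 65.2, 91.9, 73.9 and 76.3 CPM in FLASH, 129.5, 75.4 and 51.4 CPM in CONV and 74.2, 82.0 and 88.7 CPM in sham libraries. The lymphocyte-rich pair did not stand apart for this gene, since 73.9 and 75.4 CPM lie inside the range of the other libraries. FLASH against sham was -0.09 with an interval of -0.73 to 0.56, and CONV against sham 0.07 with an interval of -0.62 to 0.75 (edgeR adjusted p = 0.998 and 0.934). Changes of more than about 1.69-fold upward in CONV against sham lie outside that interval. Over 8 libraries CONV against sham was 0.13 ± 0.34 with a wider interval of -0.65 to 0.92 (edgeR adjusted p = 0.897), which reaches 1.89-fold. FLASH against sham was -0.08 ± 0.31 over 8 libraries.

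Mmp19, a secreted protease of basement membrane and cartilage proteins, had low values in the lymphocyte-rich pair and tight groups elsewhere (10:128790910-128800824, plus strand). It had 64.1, 70.3, 16.9 and 63.4 CPM in FLASH, 114, 18.3 and 99.7 CPM in CONV, and 71.9, 71.0 and 62.3 CPM in sham libraries. CONV replicates 1 and 3 exceeded every other library, and FLASH replicates 1, 2 and 4 overlapped the sham values. Over 8 libraries CONV against sham was 0.63 ± 0.12 with an interval of 0.35 to 0.90 (edgeR adjusted p = 0.101), and FLASH against CONV -0.69 ± 0.12 (edgeR adjusted p = 0.102). FLASH against sham was -0.06 ± 0.11 with an interval of -0.31 to 0.19 (edgeR adjusted p = 1). DESeq2 called both contrasts with CONV over 8 libraries (adjusted p = 0.000790 for CONV against sham and 0.000223 for FLASH against CONV). With all 10 libraries the CONV value was 0.18 ± 0.66 and no tool called it.

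Timp1, a soluble inhibitor that cells release on injury and inflammation, was expressed at 6 to 57 counts per library (X:20870166-20874735, plus strand). Its counts were 14, 10, 6 and 8 in FLASH replicates 1 to 4, 57, 16 and 44 in CONV replicates 1 to 3, and 20, 23 and 19 in sham replicates 1 to 3. As CPM these were 0.424, 0.366, 0.232 and 0.247 in FLASH, 1.83, 0.536 and 1.62 in CONV, and 0.607, 0.749 and 0.639 in sham. FLASH was below both other groups without overlap, and CONV replicates 1 and 3 were above sham while CONV replicate 2 was just below it. The gap is of few reads, with 14 counts in FLASH replicate 1 against 16 in CONV replicate 2 and 19 in sham replicate 3. FLASH against CONV was -2.05 ± 0.47 with all 10 libraries (edgeR adjusted p = 0.999), which ranked 17 of 15266 genes by p. Over 8 libraries it was -2.30 ± 0.36, an average 0.204 of the CONV level with an interval of 0.115 to 0.362 (edgeR adjusted p = 0.0931, rank 31 of 15252). CONV against sham was 1.35 ± 0.35 (edgeR adjusted p = 0.165) and FLASH against sham -0.95 ± 0.34 (edgeR adjusted p = 1) over 8 libraries. DESeq2 called FLASH against CONV over 8 libraries (adjusted p = 0.000410) and missed it with all 10 (adjusted p = 0.0594).

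Timp2 (11:118301069-118355740, minus strand) blocks Mmp2 and, bound to Mmp14 on the cell surface, also takes part in opening the Mmp2 precursor. Timp2 had 307, 515, 166 and 409 CPM in FLASH, 647, 138 and 134 CPM in CONV and 367, 553 and 488 CPM in sham libraries. The gene was thus lowest in CONV replicate 3 and highest in CONV replicate 1, a 4.83-fold range within 1 group outside the lymphocyte-rich pair. Over 8 libraries it differed by -0.20 ± 0.50 in FLASH against sham and -0.28 ± 0.56 in CONV against sham (edgeR adjusted p = 1 and 0.863).

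Timp3, which stays bound to matrix and also inhibits Adam17 and aggrecan-cutting ADAMTS proteases, had the highest CPM of the family (10:86300372-86349506, plus strand). Its values were 436, 611, 188 and 598 CPM in FLASH, 823, 139 and 294 CPM in CONV and 452, 724 and 802 CPM in sham libraries. The groups overlapped, with CONV spanning the lowest and the highest value of all 10 libraries. FLASH against sham was -0.27 ± 0.38 and CONV against sham -0.26 ± 0.43 over 8 libraries (edgeR adjusted p = 1 and 0.833).

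Timp4, the inhibitor with the narrowest tissue range, is expressed in fat and heart (6:115241892-115252205, minus strand). It had 173, 143, 21.5 and 147 CPM in FLASH, 144.9, 15.8 and 52.2 CPM in CONV and 102, 104 and 98.9 CPM in sham libraries. Outside the lymphocyte-rich pair all 3 FLASH libraries lay above sham, while CONV had 1 library above and 1 below. FLASH against sham was 0.60 ± 0.31 over 8 libraries with an interval of -0.13 to 1.32 (edgeR adjusted p = 1), and CONV against sham -0.06 ± 0.35 (edgeR adjusted p = 0.957).

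**Figure D2:**
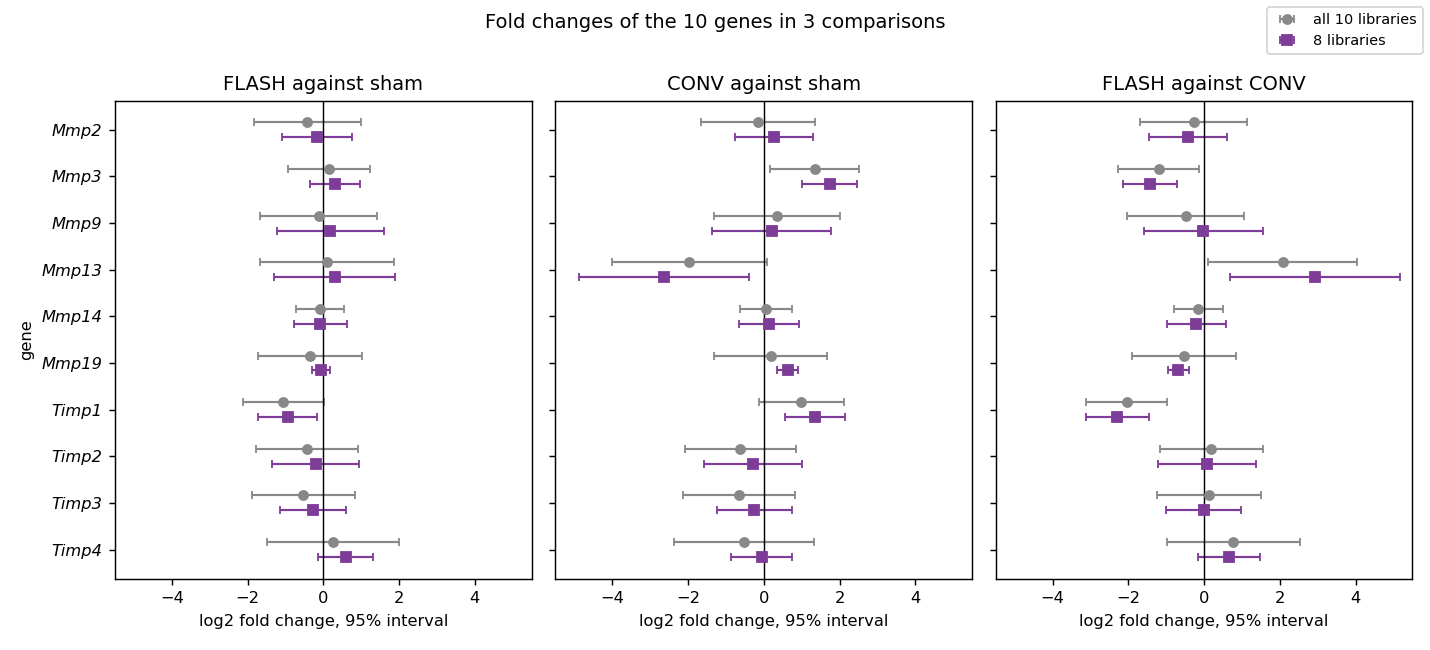
Log2 fold change of each gene with its 95% interval from edgeR in each irradiated group against sham and in FLASH against CONV, with all 10 libraries (grey circles) and the 8 libraries without the lymphocyte-rich pair (purple squares). Intervals of Mmp3, Mmp19 and Timp1 over 8 libraries lie on 1 side of 0 in both contrasts with CONV, as do those of the low-count Mmp13; the adjusted p of every gene missed 0.05.

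None of the 10 genes passed edgeR at an adjusted p under 0.05 in any comparison, with 10 or with 8 libraries. The shares of all genes that passed were 0%, 0% and 0% with all libraries and, in the same order of FLASH against sham, then CONV against sham, then FLASH against CONV, 0%, 0.0393% and 0.0131% over 8 libraries. At an unadjusted edgeR p under 0.05 the members called with all libraries were 0, 1 (Mmp3) and 3 (Mmp3, Mmp13 and Timp1) in that order, beside 0.648%, 5.82% and 2.97% of all genes. Over 8 libraries they were 1 (Timp1), 4 and 4 (Mmp3, Mmp13, Mmp19 and Timp1 in both contrasts with CONV), beside 2.52%, 13.3% and 13.7%. DESeq2 over 8 libraries called 0 members in FLASH against sham, 2 (Mmp3 and Mmp19) in CONV against sham and 3 (Mmp3, Mmp19 and Timp1) in FLASH against CONV, beside 0.0263%, 4.35% and 4.39% of genes, and with all 10 libraries it called none, beside 0%, 0.455% and 0.276%. Leaving out CONV replicate 1 as well, with replicate 3 as the only CONV library and its spread taken from the other groups, edgeR called 5 members in CONV against sham (Mmp2, Mmp3, Mmp13, Timp2 and Timp4) and 4 in FLASH against CONV (Mmp13, Timp1, Timp2 and Timp4), among 1134 and 1025 genes; without CONV replicate 3 it called 138 and 86 genes and 0 members. limma voom called no member in either set, beside 0%, 0% and 0% of genes with 10 libraries and 0%, 0.0262% and 0.0197% with 8.

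Groups did not overlap for Timp1 in FLASH against sham, for Mmp13 in CONV against sham and for Mmp13 and Timp1 in FLASH against CONV with all libraries, which is 1, 1 and 2 of 10 genes beside 4.91%, 17.7% and 2.25% of all genes tested. Over 8 libraries Timp1 and Timp4 were apart in FLASH against sham, and Mmp3, Mmp13, Mmp19 and Timp1 in both contrasts with CONV, which is 2, 4 and 4 of 10 beside 9.78%, 26.1% and 26.1%. Median log2 fold changes of the 10 genes were -0.07, 0.17 and -0.12 in the 3 comparisons over 8 libraries, beside -0.01, 0.01 and -0.02 over all genes. Both contrasts with sham share the 3 sham libraries, so their values are set side by side and not compared as independent results. Both contrasts with CONV likewise share the CONV libraries, only 2 of them over 8 libraries. A gene apart in both is thus not 2 independent results.

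Within the CONV group the genes fell into those that the 2 libraries outside the pair shared and those in which they parted. CONV replicate 1 was 1.07 times replicate 3 for Mmp3, 1.15 times for Mmp19 and 1.13 times for Timp1. For Mmp2, Mmp9, Mmp14, Timp2, Timp3 and Timp4 the ratio was 2.52 to 6.69, largest for Mmp9. CONV replicate 1 held the highest value of all 10 libraries for 8 of the 10 genes, and FLASH replicate 1 for the other 2, Mmp13 and Timp4. The share of all genes highest in CONV replicate 1 was not worked out, so this count is not read as a trait of the family. The lowest value was in FLASH replicate 3 for 4 genes, in CONV replicate 2 for 3 and in CONV replicate 3 for 3. Fibroblast and progenitor markers summed to 3015 CPM in CONV replicate 1 and 1185 CPM in CONV replicate 3. In the same order macrophage markers summed to 2288 and 779 CPM, and muscle markers to 1496 and 1.40 CPM. The part of these markers in the spread was not tested.

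The summed inhibitor level was set against the summed protease level, per kilobase of exon, as a description without a test that was chosen after values were seen. The ratio was 1.92, 1.98, 1.58 and 1.88 in FLASH replicates 1 to 4, 1.37, 0.996 and 0.733 in CONV replicates 1 to 3 and 1.75, 2.38 and 2.10 in sham replicates 1 to 3. Every CONV library lay below every FLASH and every sham library, the lymphocyte-rich pair included, and FLASH overlapped sham. Of single genes, 17.7% did not overlap in CONV against sham and 2.25% in FLASH against CONV with all libraries. No such share was worked out for ratios. Group means were 1.84 ± 0.181 in FLASH (SD, n = 4), 1.03 ± 0.320 in CONV (n = 3) and 2.08 ± 0.314 in sham (n = 3). The libraries reached a low ratio with different makeups. In CONV replicate 1 proteases summed to 215 CPM per kb, against 84.5 to 117 CPM per kb in FLASH and sham outside the pair, with inhibitors at 294 CPM per kb. In CONV replicate 3 inhibitors summed to 81.2 CPM per kb, against 162 to 249 CPM per kb in those FLASH and sham libraries. Mmp3 made up 41.2% of the protease sum of CONV replicate 3. Fibroblast and progenitor markers were low there at 1185 CPM, and their part in the ratio was not tested. In CONV replicate 2 both sums were low, 56.0 CPM per kb for proteases and 55.7 CPM per kb for inhibitors. Timp1 was at most 2.25% of any inhibitor sum, so the ratio is mostly that of Timp2, Timp3 and Timp4.

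**Figure D3:**
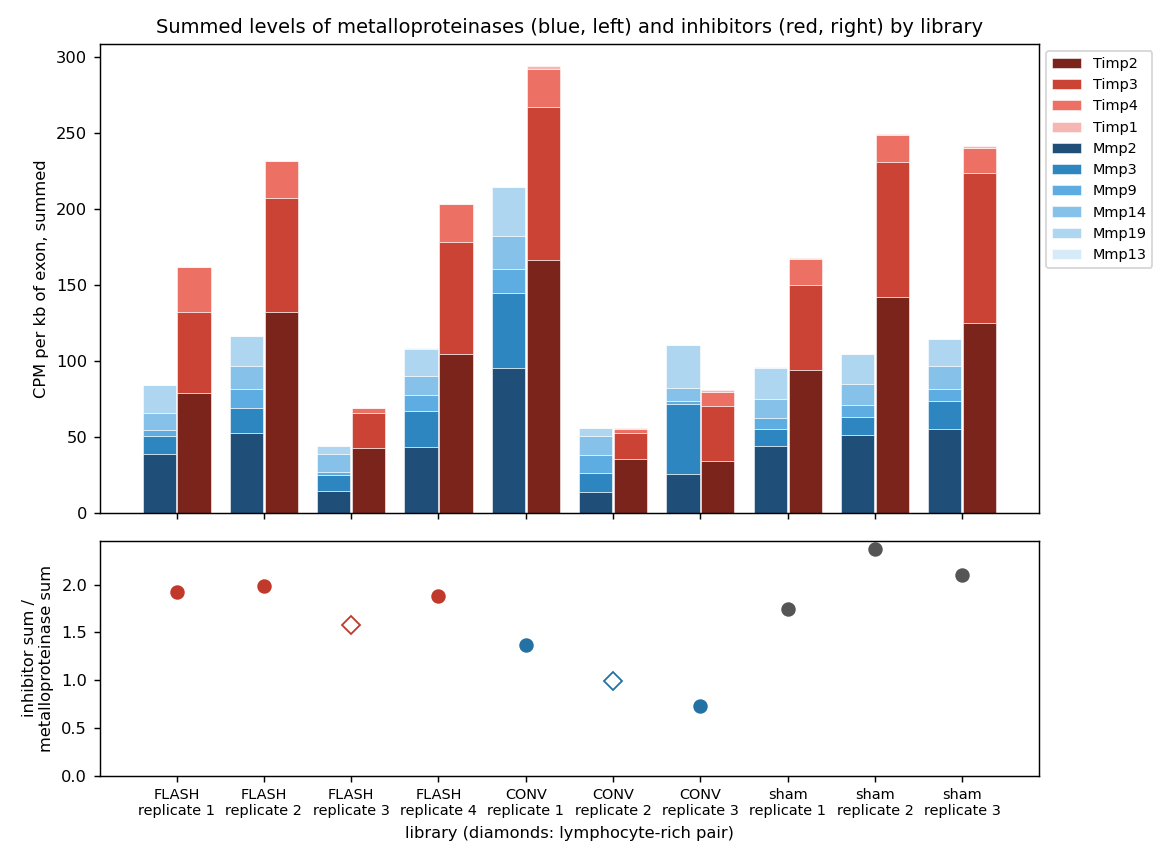
Upper panel, CPM per kilobase of exon summed over the 6 metalloproteinases (blue) and the 4 inhibitors (red) in each library, split by gene; lower panel, inhibitor sum over protease sum per library, with open diamonds for the lymphocyte-rich pair. The 3 CONV ratios, 0.733 to 1.37, lie below the 1.58 to 1.98 of FLASH and the 1.75 to 2.38 of sham.

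Genes around the family were read from lists of the same pathway. Of 17 other metalloproteinases 9 passed the filter on low counts, and 0 passed edgeR in any comparison. The macrophage elastase Mmp12 had 85, 56, 141 and 9 counts in FLASH, 12, 51 and 7 in CONV and 68, 18 and 168 in sham libraries. CONV replicates 1 and 3 held fewer than every sham library (8 libraries, CONV against sham -3.10 ± 1.18, edgeR adjusted p = 0.317). Mmp8, the neutrophil collagenase, was filtered out and had 782 counts in CONV replicate 2 and at most 19 elsewhere, in the library with the high neutrophil markers. Mmp10, a close relative of Mmp3, had 0 or 1 count in every library.

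All 15 ADAM and ADAMTS proteases were tested and 0 passed edgeR. The aggrecanases Adamts4 and Adamts5 stood on opposite sides of sham in CONV replicates 1 and 3, and both lay below sham in the lymphocyte-rich CONV replicate 2. Adamts4 had 6.51, 6.07, 1.93 and 5.13 CPM in FLASH, 9.99, 1.81 and 12.4 CPM in CONV and 5.04, 4.07 and 5.08 CPM in sham libraries (8 libraries, CONV against sham 1.22 ± 0.19, edgeR adjusted p = 0.0854; DESeq2 adjusted p = 1.78e-05). Adamts5 had 1797, 1266, 137 and 1093 CPM in FLASH, 651, 79.7 and 354 CPM in CONV and 1125, 1704 and 1181 CPM in sham libraries (CONV against sham -1.43 ± 0.35, edgeR adjusted p = 0.149; DESeq2 adjusted p = 0.00194). Adamts4 was thus high in the same 2 CONV libraries as Mmp3, Mmp19 and Timp1, and Adamts5 was low in all 3. Adam17, the sheddase that Timp3 inhibits, had 53.0, 58.0, 102 and 51.8 CPM in FLASH, 70.4, 110.4 and 60.5 CPM in CONV and 60.4, 63.9 and 63.1 CPM in sham libraries.

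Of 6 activators of metalloproteinases, which include the plasminogen activators Plat and Plau, 5 were tested and 0 passed. Among 6 other inhibitors 4 were tested and 0 passed. In CONV against sham their median log2 fold change was -1.07 with all libraries and -0.78 over 8. All 4 were negative in each set, beside 6587 of 15266 and 7430 of 15252 genes. In FLASH against CONV all 4 were positive (medians 0.80 and 0.77), beside 6754 of 15266 and 7153 of 15252 genes. FLASH against sham had medians of -0.22 and 0.03. Reck, a membrane-anchored inhibitor of metalloproteinases, had 19.7, 31.9, 14.9 and 30.9 CPM in FLASH, 30.6, 10.9 and 10.8 CPM in CONV and 25.0, 33.5 and 26.3 CPM in sham libraries.

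Of 14 matrix substrates 13 were tested and 0 passed in any comparison. Their median log2 fold change was -0.53 in FLASH against sham and -0.51 in CONV against sham with all libraries, 13 of 13 negative in each (beside 7002 and 6587 of 15266 genes), and -0.25 and -0.23 over 8 libraries with 10 of 13 negative (beside 7854 and 7430 of 15252 genes). The fibrillar collagen gene Col5a1, for example, had 614, 584, 93.3 and 333 CPM in FLASH, 441, 96.3 and 259 CPM in CONV and 539.6, 627 and 390.2 CPM in sham libraries, lowest in the lymphocyte-rich pair. Among 12 cytokines and AP-1 subunits known to induce metalloproteinase genes, 10 were tested and 0 passed. For CONV against sham over 8 libraries 6 had a positive and 4 a negative log2 fold change (median 0.25), beside 7822 positive and 7430 negative of all genes. Interleukin 1 beta, Il1b, had 13, 5, 120 and 12 counts in FLASH, 119, 205 and 40 in CONV and 8, 3 and 5 in sham libraries (8 libraries, CONV against sham 3.91 ± 0.59, edgeR adjusted p = 0.0800; DESeq2 adjusted p = 1.57e-05). Every CONV library exceeded every sham library, and the lymphocyte-rich FLASH replicate 3 was also high. The AP-1 subunit gene Junb had 15.9, 8.31, 41.7 and 13.7 CPM in FLASH, 28.2, 37.8 and 35.8 CPM in CONV and 15.1, 14.3 and 9.65 CPM in sham libraries (8 libraries, CONV against sham 1.27 ± 0.29, edgeR adjusted p = 0.136; DESeq2 adjusted p = 0.00407). The gene of another AP-1 subunit, Jun, had 58.0, 80.8, 22.0 and 57.5 CPM in FLASH, 73.8, 23.1 and 34.9 CPM in CONV and 73.1, 103 and 95.3 CPM in sham libraries, with 2 of the 3 CONV values below sham (8 libraries, CONV against sham -0.75 ± 0.32, edgeR adjusted p = 0.373). Of the 2 genes whose printed promoters hold the AP-1 letters, Mmp3 was higher and Mmp13 lower in CONV replicates 1 and 3 than in sham. Mmp13 had only 5 and 0 counts in these 2 libraries, and the part of AP-1 in either gene was not tested.

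**Figure D4:**
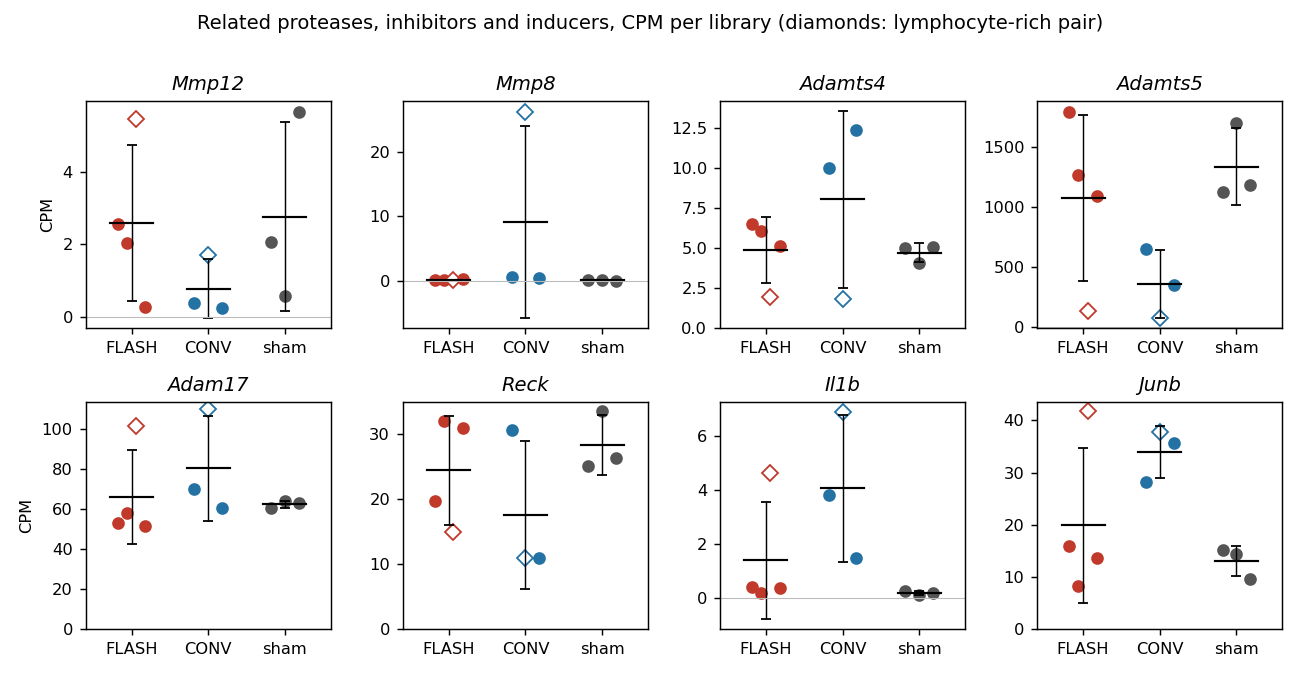
CPM per library of related proteases, inhibitors and inducers, drawn as for the family, with the mean (line) and SD (bars) of the FLASH (n = 4), CONV (n = 3) and sham (n = 3) libraries. Adamts5 is lower in every CONV library than in any sham library, Junb and Il1b are higher, and Mmp8 is high in CONV replicate 2 alone.

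Several of these genes overlap another gene on the opposite strand, with the strand setting of the counting not given in the sources used here. Timp1, Timp3 and Timp4 each lie inside a synapsin gene read from the opposite strand (Syn1, Syn3 and Syn2). Timp1 shares no exon bases with Syn1, Timp3 shares 1733 bases (21.3%) of its exons with Syn3 and Timp4 shares 90 bases (1.53%) with Syn2. Syn3 was at 2.12 to 4.50 CPM and Syn1 at 0.309 to 1.18 CPM. Syn2 was at 26.8 CPM in CONV replicate 3 and at 4.01 to 9.66 CPM elsewhere. Mmp19 shares 789 exon bases (22.3%) with Tmem198b, which differed by 0.06 ± 0.13 in CONV against sham and -0.14 ± 0.13 in FLASH against CONV over 8 libraries. Values of the overlapping pairs are uncertain to the extent of the shared bases.

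The genes whose log2 CPM followed each member most closely over the 8 libraries were taken among about 13762 genes of at least 1 CPM, as a description. With 8 points in 3 groups high correlations are common: the gene at rank 1000 still had a Pearson r of 0.633 to 0.822, by member. Mmp2 and Mmp14 were each other's closest match (r = 0.991 over 8 libraries, 0.626 over 10), and Ptpro was next for both (0.986 and 0.987). For Mmp3 the closest were Apobec3 (0.994), Ibtk (0.992) and Socs2 (0.987), of which none kept an r above 0.259 over 10 libraries. Timp1 was followed most closely by Manf (0.969), Canx (0.968) and Hspa5 (0.958), with 0.162, 0.941 and 0.501 over 10 libraries. For Mmp19 they were Gpr35, Ppp1cc and Pirb (0.979 to 0.981), all with a negative r over 10 libraries. Timp2 had Creb5 as its closest gene (0.993 over 8 libraries, 0.981 over 10), Timp3 had Frg1 (0.994 and -0.251) and Timp4 had St13 (0.978 and 0.987). Mmp9 was closest to Smim3 (0.982 and 0.319) and Mmp13 to Gnpda2 (0.974 and 0.687).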

How the data were processed

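Total RNA of 10 fat libraries was depleted of ribosomal RNA and sequenced with a kit that keeps strand, per the labels' protocols. The count files were deposited as whole numbers of reads per gene symbol, not normalized. The submitters' processing notes name kallisto 0.5.0 and mm10, with the aligner, annotation and strand setting not given in the sources used here. Reads given to no gene (5 entries a file, 52.0% to 69.6% of all) stayed out of library sizes and tests.

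Counts were tested in R 4.3.3 with edgeR 4.0.16. filterByExpr left 15266 genes with all 10 libraries and 15252 with 8, and TMM factors were 0.875 to 1.17. A robust quasi-likelihood fit, with a mean for each group, gave two-sided contrasts of each irradiated group with sham and of FLASH with CONV, adjusted over all genes by Benjamini and Hochberg with a threshold of 0.05. The standard error is the absolute log2 fold change divided by the root of F, and intervals are 95%. The common coefficient of biological variation came to 0.543 with 10 libraries and 0.284 with 8. Levels per kilobase used merged exons of GENCODE M21 on GRCm38. Alternatives were DESeq2 1.42.0, limma 3.58.1 with voom, other scalings and filters, fits of 2 groups, a replicate block, Rn45s left out, and each library left out. Replicate libraries all differed beyond counting noise (lowest chi-square per gene 41.9). The steps were tested on simulated data.

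The genes, the lists and the doubt over the lymphocyte-rich pair were chosen with earlier results of these data known. All 10 family members are described; of each other list the text names genes past the threshold, or else up to 3 with the smallest p, and textbook partners of the family. 1 of these named genes is not reported here. Genes of like pattern are the 3 with the highest Pearson r of log2 CPM (prior count 2).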

Additional observations from a re-analysis of the deposited data

Results flagged for a closer look

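In the FLASH group, Mmp19 in replicate 3 was 16.9 CPM, far from the 63.4 to 70.3 CPM of the other 3 FLASH libraries. Among related genes, Adam17 in FLASH replicate 3 was 102 CPM, against 51.8 to 58.0 CPM in the other FLASH libraries. Syn1, the host gene of Timp1, was 0.309 CPM in FLASH replicate 3 and 0.834 to 0.878 CPM in the others. All 3 values come from the lymphocyte-rich library, whose part in them was not tested. Such a gap arises by chance in about 1 of 20 groups of 4, and more genes than these 3 were looked at.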

How the results depend on the processing

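No member passed edgeR under another scaling, filter or set of groups, or with Rn45s left out, with 10 libraries, and these settings turned no sign, though a filter of 1 CPM in 3 libraries removed Mmp13 and Timp1. Directions of the small differences were not stable. Over 8 libraries against 10, FLASH against sham became 0.18 for Mmp9, CONV against sham 0.26 for Mmp2 and FLASH against CONV -0.0157 for Timp3. limma voom with 10 libraries gave -0.0693 for Mmp13 and -0.13 for Timp4 (FLASH against sham), -0.0132 for Mmp9, -0.0394 for Mmp14 and -0.20 for Mmp19 (CONV against sham) and 0.0576 for Mmp2 (FLASH against CONV). With 8 libraries voom gave -0.0294 for Mmp2, -0.33 for Mmp9 and -0.0134 for Mmp14 (CONV against sham), and 0.38 for Mmp9 and 0.16 for Timp3 (FLASH against CONV). The cause of these turns was not tested.

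Genes past the threshold numbered 6 in CONV against sham and 2 in FLASH against CONV over 8 libraries, against 0 with 10. DESeq2 called 66 and 40 genes in these contrasts with 10 libraries. Over 8 it called 4 genes in FLASH against sham, 661 in CONV against sham with 2 members, and 667 in FLASH against CONV with 3 members.

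Deviations of same-numbered libraries from their group means correlated at -0.756 to 0.261 (-0.596 to 0.472 over 8). With so few libraries in a group, these values cannot settle whether replicate numbers pair the libraries. The replicate block, fitted without FLASH replicate 4, called 0 genes in every contrast of both sets. With 10 libraries it gave FLASH against sham of -0.0529 for Mmp3, -0.10 for Mmp13 and -0.14 for Timp4, and CONV against sham of -0.0766 for Mmp9. With 8 libraries the block gave FLASH against sham of -0.43 for Mmp9 and -0.0246 for Mmp13, and FLASH against CONV of -0.25 for Timp2.

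Leaving out each of the 10 libraries gave 0 to 1 genes in both contrasts with CONV, 0 genes in FLASH against sham and 0 members. FLASH against sham ran from -0.13 to 0.41 for Mmp3, -0.50 to 0.18 for Mmp9 and -0.49 to 0.30 for Mmp13. CONV against sham ran from -1.34 to 0.27 for Mmp2, -0.16 to 0.81 for Mmp9, -0.38 to 0.32 for Mmp14 and -0.22 to 0.64 for Mmp19. FLASH against CONV ran from -0.70 to 0.92 for Mmp2, -0.94 to 0.0385 for Mmp9, -0.41 to 0.29 for Mmp14, -0.17 to 1.37 for Timp2 and -0.29 to 1.09 for Timp3.

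Leaving out each of the 8 gave 0 to 1134 genes and 0 to 5 members in CONV against sham and 0 to 1025 genes and 0 to 4 members in FLASH against CONV, the highest without CONV replicate 1, where 1 CONV library remains and is assumed to vary like the others. FLASH against sham ran from -0.11 to 0.50 for Mmp9, -0.36 to 0.61 for Mmp13 and -0.22 to 0.0421 for Mmp14. CONV against sham ran from -0.98 to 0.92 for Mmp2, -1.74 to 1.01 for Mmp9, -0.69 to 0.66 for Mmp14, -1.83 to 0.45 for Timp2, -1.19 to 0.31 for Timp3 and -0.99 to 0.50 for Timp4. FLASH against CONV ran from -1.09 to 0.81 for Mmp2, -0.83 to 1.93 for Mmp9, -0.74 to 0.62 for Mmp14, -0.66 to 1.63 for Timp2 and -0.58 to 0.92 for Timp3. In both contrasts with CONV, leaving out any of the 8 libraries turned no sign of Mmp3, Mmp13, Mmp19 or Timp1. Groups did not overlap for these genes over the 8 libraries, so leaving out 1 library could hardly turn a sign. The kept signs therefore add no support. Mmp13, though, reached -7.04 and 7.34 against the CONV library with 0 counts. Among the fits from 10 libraries, Mmp19 did turn in CONV against sham, to -0.22 without CONV replicate 1.

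With the longest transcript as length, an alternative added after values were seen, the inhibitor to protease ratio averaged 1.98 in FLASH, 1.15 in CONV and 2.30 in sham. Its ranges were 1.57 to 2.15 in FLASH, 0.901 to 1.54 in CONV and 1.91 to 2.62 in sham. The highest CONV library was thus only just below the lowest FLASH library. The 2 CONV libraries outside the pair, and the few counts of Timp1 and Mmp13, limit what these data can show.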
